A study of Mus musculus with 4 samples.

Results

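Germline and meiotic genes are RNAs that embryonic stem cells hold at low levels and germ cells use for meiosis, for small-RNA defence against transposons and for gametogenesis. The set was fixed by name as 10 genes, namely Stag3, Rec8, Smc1b, Sycp3, Hormad1, Dazl, Ddx4, Mael, Taf7l and Tex101. Of these, 9 had a row among the 22883 gene models of the deposited table, each with a single row, and Sycp3 was not analysed here. The values came from RNA sequencing of V6.5-derived mouse embryonic stem cell clones with a conditional Exosc3 knockout, cultured without feeder cells. Exosc3 encodes a subunit of the RNA exosome, the ribonuclease complex that trims and degrades many nuclear and cytoplasmic RNAs. In Exosc3-depleted cells (n = 2 libraries) doxycycline had been withdrawn for 3 days, and in Exosc3-present cells (n = 2 libraries) it was kept in the medium at 0.1 µg/ml. Both groups carry the same conditional genotype, so the presence of the drug and of Exosc3 changed together and cannot be told apart.

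In meiosis, sister chromatids are held by a germline form of cohesin in which REC8, STAG3 and SMC1B take the places of subunits used in mitosis, and HORMAD1 and SYCP3 assemble on the chromosome axis that this cohesin builds. In stem cells many such genes are kept low by promoter DNA methylation and by a Polycomb complex that contains MGA, MAX, E2F6 and PCGF6, where MGA with MAX binds E-box motifs and E2F6 binds E2F motifs. DAZL and DDX4 are RNA-binding proteins of germ cells, MAEL works in the piRNA pathway, TAF7L is the germ cell relative of the general transcription factor subunit TAF7, and TEX101 is a surface glycoprotein needed for sperm function.

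Because 2 of these factors read short DNA words, the promoter windows of the genes that changed are shown, with Ddx4, which did not pass the test, beside them. Each window (the first of 2 listed for Hormad1) runs from 250 bases before to 50 bases after the annotated start on the gene's own strand (RefSeq, GRCm38.p6), and capitals mark the E-box CACGTG and the E2F motif GCGGGAA on either strand. The windows are chr5:138280259-138280558 (plus strand) for Stag3, chrX:134476441-134476740 (minus strand) for Taf7l, chr3:95559427-95559726 (plus strand) for Hormad1 and chr13:112652261-112652560 (minus strand) for Ddx4.
Stag3: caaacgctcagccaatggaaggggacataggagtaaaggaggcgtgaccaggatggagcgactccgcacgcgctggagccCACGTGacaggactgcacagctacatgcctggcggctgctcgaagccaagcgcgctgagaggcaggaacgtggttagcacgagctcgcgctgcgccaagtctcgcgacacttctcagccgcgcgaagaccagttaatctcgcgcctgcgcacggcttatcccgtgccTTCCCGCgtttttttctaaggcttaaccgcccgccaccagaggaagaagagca
Taf7l: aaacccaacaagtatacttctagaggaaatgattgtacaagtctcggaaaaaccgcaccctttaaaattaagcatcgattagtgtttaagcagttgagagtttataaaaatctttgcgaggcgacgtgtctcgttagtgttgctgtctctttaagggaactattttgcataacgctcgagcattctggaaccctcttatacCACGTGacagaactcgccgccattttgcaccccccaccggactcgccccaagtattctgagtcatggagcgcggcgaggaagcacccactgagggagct
Hormad1: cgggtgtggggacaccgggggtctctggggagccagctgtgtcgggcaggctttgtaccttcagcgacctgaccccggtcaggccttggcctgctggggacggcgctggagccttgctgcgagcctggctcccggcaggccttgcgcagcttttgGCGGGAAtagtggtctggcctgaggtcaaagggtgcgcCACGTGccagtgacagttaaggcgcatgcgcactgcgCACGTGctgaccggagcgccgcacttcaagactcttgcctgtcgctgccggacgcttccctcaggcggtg
Ddx4: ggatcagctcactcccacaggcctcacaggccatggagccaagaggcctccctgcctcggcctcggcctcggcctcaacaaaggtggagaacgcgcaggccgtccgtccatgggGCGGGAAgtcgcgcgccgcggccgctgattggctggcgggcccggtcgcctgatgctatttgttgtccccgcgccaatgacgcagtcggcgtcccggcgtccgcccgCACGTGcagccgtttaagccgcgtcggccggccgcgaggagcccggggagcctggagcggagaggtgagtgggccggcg

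All 10 genes had a window in the RefSeq promoter table, Sycp3 included. The E-box was found in 6 of the 10 (Stag3, Taf7l, Ddx4, Mael, Sycp3 and Hormad1), against 7.15% of all 32851 windows of that length. The E2F motif was found in 5 of the 10 (Stag3, Ddx4, Sycp3, Hormad1 and Smc1b), against 4.6% of all windows. Both motifs stood in 4 windows, those of Stag3, Ddx4, Sycp3 and Hormad1, against 0.457% of all windows. The members' windows held 15 to 38 CG dinucleotides, against a median of 7 in all windows, and among the 11378 windows with at least 15 the shares were 11.3% for the E-box, 10.3% for the E2F motif and 1.12% for both. Hormad1 and Sycp3 each had 2 E-boxes. Of the 3 tested genes with both motifs Hormad1 rose, Stag3 fell and Ddx4 did not pass. Taf7l, which rose, and Mael, which did not pass, had the E-box alone. Dazl and Rec8, which did not pass, had neither motif. Whether the motifs bear on the response was not tested. These matches describe letters in a window and no binding was measured.

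**Figure D1:**
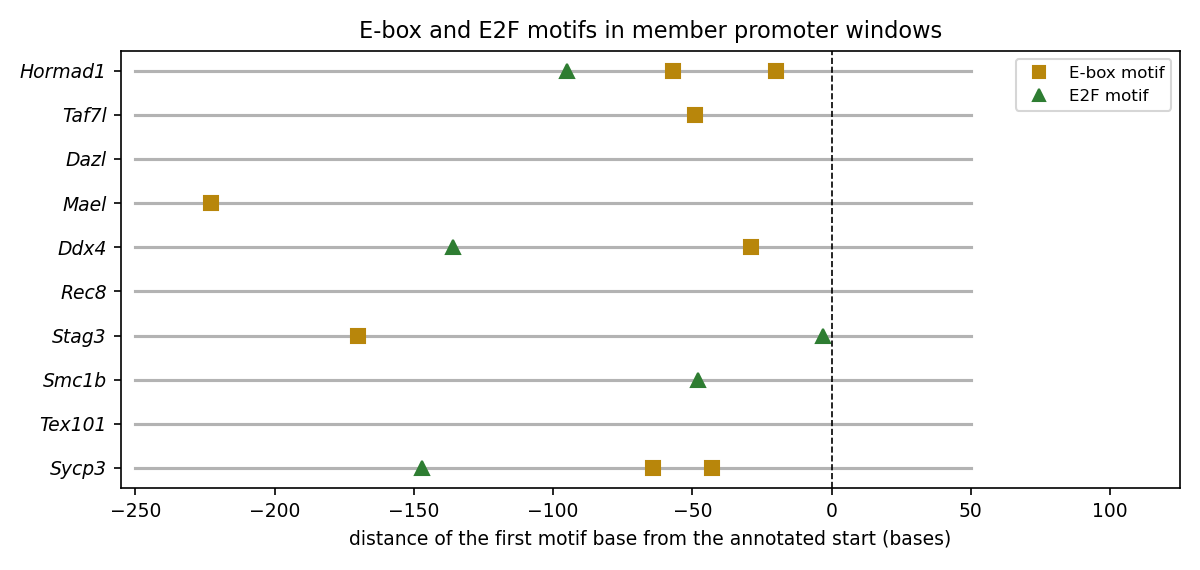
Positions of E-box (squares) and E2F (triangles) motifs in the promoter windows of the 10 genes, with distance from the annotated start in bases on the x axis and 1 gene per line. Stag3, Ddx4, Sycp3 and Hormad1 carry both kinds of motif, while Dazl, Rec8 and Tex101 carry neither.

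The unit throughout is FPKM, fragments per kilobase of gene model, scaled to the fragments of each library. The library totals behind it, recovered from the spacing of the values, were 38095698 and 41968325 fragments in Exosc3-depleted libraries and 60851774 and 55233386 fragments in Exosc3-present libraries. Listed models held 42.4% to 44.0% of them in Exosc3-depleted libraries and 49.7% to 51.8% in Exosc3-present libraries. Exosc3 itself stood at 0.635 and 0.691 FPKM in Exosc3-depleted libraries, against 24.2 and 23.2 in Exosc3-present libraries, so all 4 labels matched the depleted gene. Stem cell markers were abundant in all libraries, with Pou5f1 at 413 and 286 FPKM in Exosc3-depleted cells and 471 and 434 FPKM in Exosc3-present cells. Of the 5 such markers with a row, 4 were lower in Exosc3-depleted cells, beside 30.1% of all tested rows. These were Tdgf1 (log2 -1.6, limma adjusted p = 0.00135), Zfp42 (-1.51, 0.00202), Esrrb (-1.32, 0.00118) and Dppa5a (-1.07, 0.0122). The Dppa5a call ended in limma under median-of-ratios scaling (adjusted p = 0.0736) and scaling without the 50 highest rows (0.0702). Pou5f1 was not called (log2 -0.39, limma adjusted p = 0.167). Fibroblast markers summed over 8 genes to 1.78 and 1.41 FPKM in Exosc3-depleted libraries and 3.38 and 3.38 FPKM in Exosc3-present libraries, with Postn, Lum and Dcn at 0 in every library. Most of the sum in Exosc3-present libraries came from Thy1, a surface glycoprotein gene. Thy1 had 0.151 and 0.206 FPKM in Exosc3-depleted libraries and 2.39 and 2.09 FPKM in Exosc3-present libraries. It was the 1 of the 3 tested that was called (log2 -2.01, limma adjusted p = 0.000351), and entered the test only through its level in Exosc3-present cells. Col1a1 (log2 0.42, adjusted p = 0.142) and Fbln2 (log2 -0.12, adjusted p = 0.553) were not called in limma. The part of fibroblasts in the results was not tested. Fold changes were tested with limma on log2(FPKM + 0.5) across the 9336 rows whose mean FPKM reached 0.5, with p-values adjusted by the Benjamini-Hochberg method and called below 0.05. On that scale a change in a low gene is understated. Of all tested rows 42.7% were called, 12.6% higher and 30.1% lower in Exosc3-depleted cells, and the median row lay at log2 -0.27.

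Among the germline and meiotic genes, Taf7l and Hormad1 rose and Stag3 fell in Exosc3-depleted cells, while Rec8, Dazl, Ddx4 and Mael did not pass the test. Thus 3 of the 7 tested members were called, 2 higher and 1 lower, beside 42.7% of all rows, 12.6% higher and 30.1% lower. The share of members called is near the background rate. Smc1b and Tex101 lay below the filter on low values and were not tested. In bulk RNA fewer cells expressing a gene and less of its RNA per cell cannot be told apart. No label says whether the 2 libraries of a group were separate cultures, so p-values measure only the spread between these libraries.

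**Figure D2:**
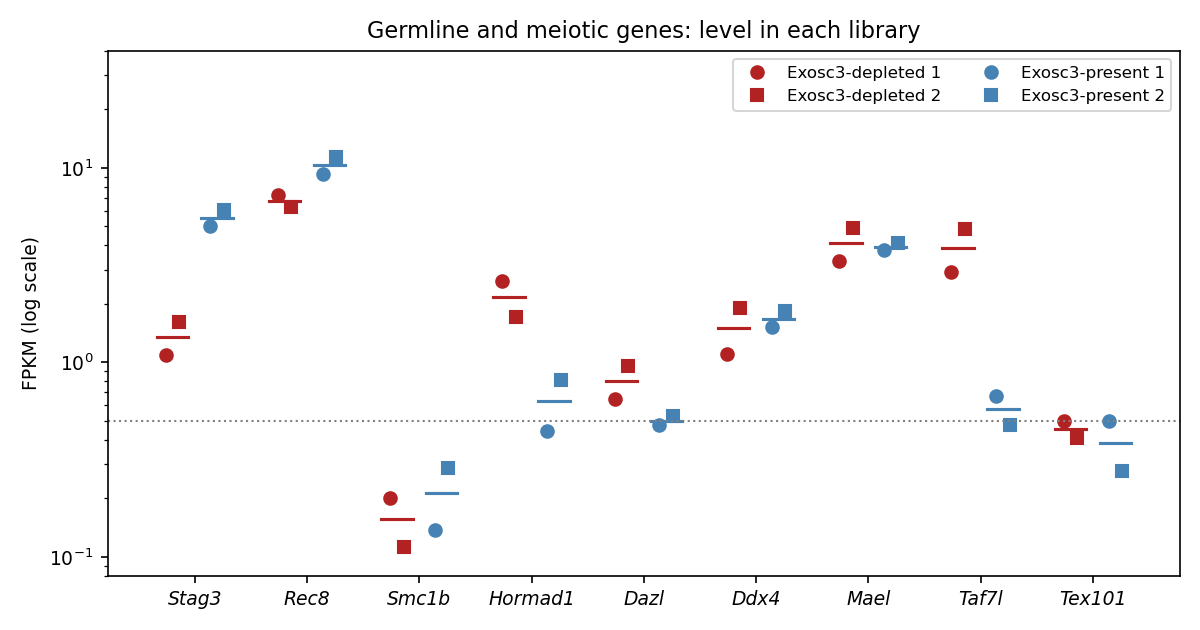
FPKM of the 9 genes with a row in each library on a log axis, Exosc3-depleted in red and Exosc3-present in blue, circles for replicate 1 and squares for replicate 2, with bars at group means. The dotted line marks 0.5 FPKM. The groups separate for Stag3, Rec8, Hormad1, Dazl and Taf7l and overlap for Smc1b, Ddx4, Mael and Tex101.

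The cohesin genes come first. Stag3 (uc009afn.2), which encodes the germline form of the cohesin subunit that STAG1 and STAG2 provide in mitosis, had 1.09 and 1.62 FPKM in Exosc3-depleted libraries, against 5.05 and 6.04 FPKM in Exosc3-present libraries. These values rest on 175 and 288 fragments in Exosc3-depleted libraries and 1298 and 1410 in Exosc3-present libraries, and the groups do not overlap. Mean levels were 1.35 ± 0.38 FPKM in Exosc3-depleted cells and 5.54 ± 0.70 FPKM in Exosc3-present cells (SD, n = 2 each), a ratio of 0.244. Its log2 change was -1.71 (SE 0.22, limma adjusted p = 0.00144), and it passed under all 17 alternatives tried, between -1.43 and -2.05. Levels were ranked here and below among all 22883 rows, of which 15471 were above 0 in any library. Stag3 stood above 67.9% of all rows in Exosc3-depleted cells and above 80.8% in Exosc3-present cells. Its neighbour Gpc2, a glypican gene on the opposite strand whose span overlaps that of Stag3 in RefSeq but not in GENCODE M21, was also lower, with 0.679 and 0.796 FPKM in Exosc3-depleted libraries and 1.33 and 1.51 FPKM in Exosc3-present libraries (log2 -0.63, SE 0.17, limma adjusted p = 0.0214). The libraries were stranded, but whether counting used the strand is not given in the sources used here, so reads from the 2 genes may not be fully separated.

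Rec8 (uc007tzo.1), the germline kleisin that closes the cohesin ring in meiosis, was the most abundant of the 9 genes. It had 7.27 and 6.28 FPKM in Exosc3-depleted libraries, against 9.29 and 11.4 FPKM in Exosc3-present libraries. Both Exosc3-depleted libraries lie below both Exosc3-present ones, as in 50.9% of all tested rows. The log2 fold change of -0.57 (SE 0.20) missed the threshold with a limma adjusted p of 0.0522. It passed in limma with a stricter filter at 2 FPKM (adjusted p = 0.0461) and with no intensity trend in the prior (0.0474). Without Exosc3-depleted replicate 1 or 2 the log2 change was -0.67 or -0.47. Without Exosc3-present replicate 1 or 2 it was -0.71 or -0.43. Scalings that bring the median row near 0 took it to between -0.25 and -0.28, with adjusted p-values of 0.32 to 0.37.

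Smc1b (uc007xcx.1), the meiotic partner of SMC3, was barely detected. It had 0.201 and 0.112 FPKM in Exosc3-depleted libraries, from 31 and 19 fragments, against 0.138 and 0.287 FPKM in Exosc3-present libraries, from 34 and 64 fragments. Exact Poisson 95% intervals, which cover counting error only, were 0.137 to 0.286 and 0.0675 to 0.175 FPKM in Exosc3-depleted libraries, and 0.0958 to 0.193 and 0.221 to 0.366 FPKM in Exosc3-present libraries. The 2 Exosc3-present libraries differ from each other beyond these intervals, and the groups overlap. With no filter on low values the log2 change was -0.11 (SE 0.13, limma adjusted p = 0.555). Fam118a, on the opposite strand, has a span that overlaps that of Smc1b in RefSeq but not in GENCODE M21. It had 4.26 and 5.29 FPKM in Exosc3-depleted libraries and 4.15 and 4.73 FPKM in Exosc3-present libraries. As the use of the strand in counting is not given, some of the fragments listed for Smc1b may come from Fam118a.

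FPKM is a level per length, so each germline form can be set beside the paralogue that other dividing cells use. Stag3 made up 12.1% and 11.8% of the summed FPKM of Stag1, Stag2 and Stag3 in Exosc3-depleted libraries, against 46% and 40.7% in Exosc3-present libraries. The share was thus lower in both Exosc3-depleted libraries, where Stag1 (log2 0.36, adjusted p = 0.353) and Stag2 (log2 0.44, adjusted p = 0.202) did not pass in limma. Without Exosc3-depleted replicate 1 the log2 change was 0.723 for Stag1 and 0.596 for Stag2. Without Exosc3-depleted replicate 2 it was -0.006 for Stag1 and 0.286 for Stag2. Rec8 made up 34.3% and 19% of Rec8 and Rad21 in Exosc3-depleted libraries, against 24.5% and 27.3% in Exosc3-present libraries, so the groups overlap. The wide spread of that share follows Rad21, the mitotic kleisin, which had 13.9 and 26.8 FPKM in the Exosc3-depleted pair, against 28.7 and 30.2 FPKM in the Exosc3-present pair (log2 -0.59, limma adjusted p = 0.147; 5.88e-05 without Exosc3-depleted replicate 2). Smc1b gave 0.551% to 2.08% of Smc1a and Smc1b in Exosc3-depleted libraries and 0.963% to 1.46% in Exosc3-present libraries. Smc1a, the mitotic form, likewise did not pass (log2 -0.25, limma adjusted p = 0.598), and its sign turned under 3 other scalings, while it was called lower without Exosc3-depleted replicate 2 (adjusted p = 0.00262).

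**Figure D3:**
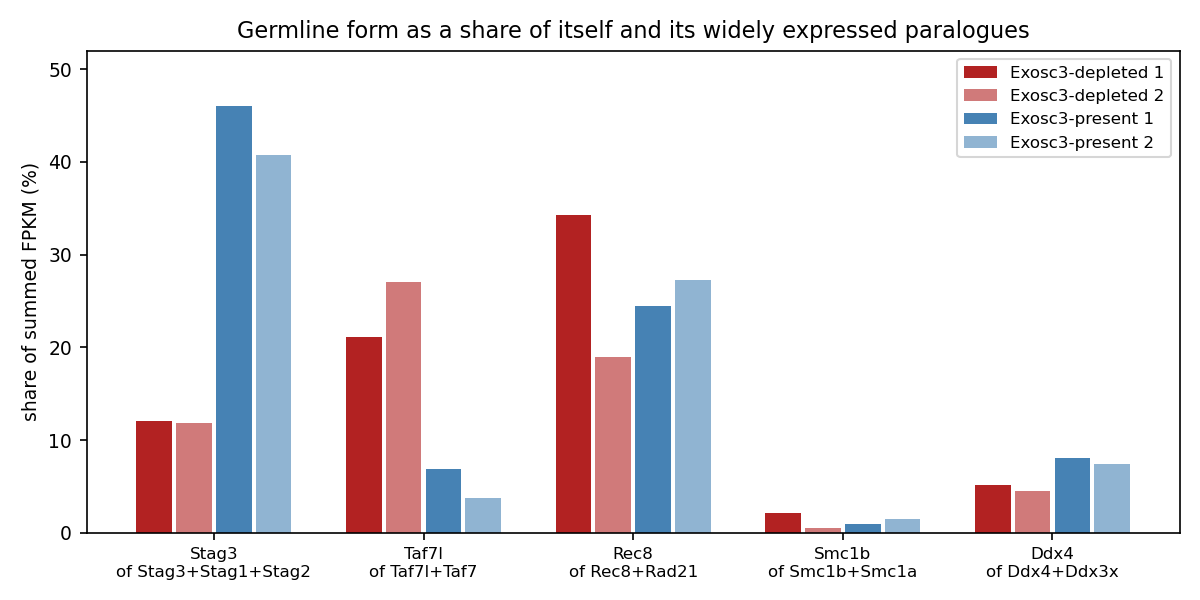
Share of each germline form in the summed FPKM of itself and its widely expressed paralogues, in percent, 1 bar per library, Exosc3-depleted in red and Exosc3-present in blue. The Stag3 bars are 12.1% and 11.8% in Exosc3-depleted libraries against 46% and 40.7% in Exosc3-present ones, and the Taf7l bars are higher in both Exosc3-depleted libraries.

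Of the mitotic cohesin genes and their regulators 14 of 15 had a row and all 14 were tested. Of the 14, 0 were higher and 2 lower, beside 12.6% higher and 30.1% lower over all tested rows. Esco2, a cohesin acetyltransferase of S phase, had 2.77 and 3.24 FPKM in Exosc3-depleted libraries, against 6.18 and 10.3 FPKM in Exosc3-present libraries (log2 -1.28, SE 0.26, limma adjusted p = 0.00834). Cdca5, which encodes the cohesion protector sororin, had 16.5 and 16.0 FPKM in Exosc3-depleted libraries, against 28.6 and 33.3 FPKM in Exosc3-present libraries (log2 -0.90, SE 0.17, limma adjusted p = 0.00653). Pds5a (log2 -0.96, adjusted p = 0.0619) and the shugoshin gene Sgol1 (log2 -0.61, adjusted p = 0.103) did not pass in limma. Pds5a passed without Exosc3-depleted replicate 1 (-0.42, adjusted p = 0.0433), Exosc3-depleted replicate 2 (-1.49, 1.75e-05) or Exosc3-present replicate 1 (-1.13, 0.0365), and with a stricter filter at 2 FPKM (0.0467), and Sgol1 passed without Exosc3-depleted replicate 2 (0.000122). The calls of Esco2 (log2 -0.934) and Cdca5 (log2 -0.797) ended without Exosc3-present replicate 2. The Cdca5 call also ended under median-of-ratios scaling (log2 -0.591, limma adjusted p = 0.0531). The list median was log2 -0.25, beside -0.27 for all tested rows. The counts of higher and lower genes in this list moved when single libraries were left out.

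Hormad1 (uc008qkb.1), whose protein binds the meiotic chromosome axis and promotes homologue pairing, had 2.62 and 1.72 FPKM in Exosc3-depleted libraries, against 0.446 and 0.815 FPKM in Exosc3-present libraries. The groups do not overlap, with 151 and 109 fragments in Exosc3-depleted libraries and 41 and 68 in Exosc3-present libraries. The means were 2.17 ± 0.64 FPKM in Exosc3-depleted cells and 0.630 ± 0.26 FPKM in Exosc3-present cells (SD, n = 2 each), a ratio of 3.44. Its log2 change was 1.24 (SE 0.25, limma adjusted p = 0.00726). Without Exosc3-present replicate 1, the lower of its pair, the value was 1.0 and missed the threshold (adjusted p = 0.0525), and Hormad1 was not tested under a stricter filter at 2 FPKM. Its neighbour on the same strand, the Golgi gene Golph3l, had 2.19 and 3.44 FPKM in Exosc3-depleted libraries, against 2.66 and 3.23 FPKM in Exosc3-present libraries (log2 -0.08, limma adjusted p = 0.822).

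Around Hormad1, the list of genes for the meiotic axis and synapsis held 16 names, 11 with a row and 6 tested. Of these Hormad1 rose, Stag3 fell and 4 did not pass, beside 12.6% higher and 30.1% lower over all tested rows. The list median was log2 -0.48, beside -0.27 for all tested rows. Trip13 encodes the ATPase that strips HORMA-domain proteins from the axis and also acts in mitosis. It had 6.14 and 9.70 FPKM in Exosc3-depleted libraries, against 11.7 and 11.5 FPKM in Exosc3-present libraries (log2 -0.56, SE 0.24, limma adjusted p = 0.101). Without Exosc3-depleted replicate 2 its log2 change was -0.866.

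Taf7l (uc009ugc.2) had the largest rise of the tested members. It had 2.92 and 4.83 FPKM in Exosc3-depleted libraries, against 0.671 and 0.477 FPKM in Exosc3-present libraries. It rested on 215 and 392 fragments in Exosc3-depleted libraries and 79 and 51 in Exosc3-present libraries, and the groups are far apart. The means were 3.87 ± 1.35 FPKM in Exosc3-depleted cells and 0.574 ± 0.14 FPKM in Exosc3-present cells (SD, n = 2 each), a ratio of 6.74. Its log2 change was 2.0 (SE 0.25, limma adjusted p = 0.00137), and it passed under all 17 alternatives, between 1.60 and 2.72. In level it stood above 79.1% of rows in Exosc3-depleted cells and above 61.1% in Exosc3-present cells. Timm8a1, its neighbour on the same strand of the X chromosome and a mitochondrial import gene, was lower, at 15.5 and 17.2 FPKM in Exosc3-depleted libraries and 28.5 and 28.6 FPKM in Exosc3-present libraries (log2 -0.79, SE 0.17, limma adjusted p = 0.00985).

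The widely expressed paralogue Taf7 had 10.9 and 13.0 FPKM in Exosc3-depleted libraries, against 9.06 and 12.2 FPKM in Exosc3-present libraries (log2 0.17, limma adjusted p = 0.551). Taf7l therefore made up 21.1% and 27.1% of the summed FPKM of the pair in Exosc3-depleted libraries, against 6.9% and 3.76% in Exosc3-present libraries. Of 10 genes for testis transcription 6 had a row and 3 were tested. Besides Taf7l, Mybl1, a regulator of male meiosis, rose to 1.33 and 1.94 FPKM in Exosc3-depleted libraries, against 0.586 and 0.534 FPKM in Exosc3-present libraries (log2 0.99, SE 0.19, limma adjusted p = 0.00695), a call that ended without Exosc3-present replicate 2 (adjusted p = 0.0548). Zfx, which is not specific to germ cells, did not pass (log2 0.47, limma adjusted p = 0.0824) but did without Exosc3-depleted replicate 1 (0.00463) or Exosc3-depleted replicate 2 (0.039) and under the 3 other scalings (0.0121 to 0.0368).

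**Figure D4:**
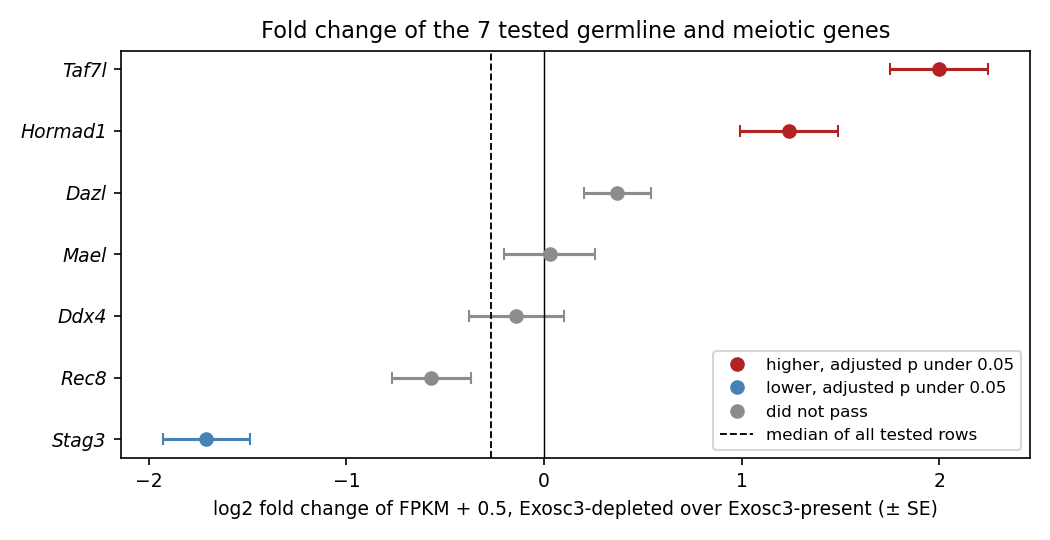
Log2 fold change of FPKM + 0.5, Exosc3-depleted over Exosc3-present, with its standard error for the 7 tested genes, red where higher, blue where lower and grey where the test was not passed. The dashed line is the median of all tested rows at -0.27. Taf7l (2.0) and Hormad1 (1.24) lie to the right, Stag3 (-1.71) to the left, and Mael (0.03) and Ddx4 (-0.14) near 0.

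Of the RNA-binding and germ granule genes among the members, Dazl, Ddx4 and Mael did not pass the test. Dazl (uc008cyv.2), a translational regulator needed for entry into gametogenesis, had 0.651 and 0.956 FPKM in Exosc3-depleted libraries, against 0.475 and 0.529 FPKM in Exosc3-present libraries. The groups do not overlap, but that held with Exosc3-depleted cells higher for 22.2% of all tested rows, and the log2 fold change of 0.37 (SE 0.17) had a limma adjusted p of 0.128. It passed without Exosc3-depleted replicate 1 (log2 0.54, adjusted p = 0.00272) and under median-of-ratios scaling (log2 0.55, adjusted p = 0.0291).

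Ddx4 (uc007rwn.2), the germ cell RNA helicase also called Vasa, had 1.11 and 1.91 FPKM in Exosc3-depleted libraries, against 1.52 and 1.84 FPKM in Exosc3-present libraries. The Exosc3-depleted values span the Exosc3-present ones (log2 -0.14, SE 0.24, limma adjusted p = 0.656). Without Exosc3-depleted replicate 2 the log2 change of Ddx4 was -0.43, and without Exosc3-depleted replicate 1 it was 0.15, so the pair decides the sign. Ddx3x, a widely expressed helicase of the same family on the X chromosome, had 20.5 and 40.8 FPKM in Exosc3-depleted libraries and 17.3 and 22.8 FPKM in Exosc3-present libraries (log2 0.53, SE 0.32, limma adjusted p = 0.23; 0.000382 without Exosc3-depleted replicate 1). Ddx4 gave 5.17% and 4.47% of the summed FPKM of the pair in Exosc3-depleted libraries, against 8.07% and 7.44% in Exosc3-present libraries.

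Mael (uc007dkk.1), whose product acts in transposon silencing, had 3.31 and 4.90 FPKM in Exosc3-depleted libraries, against 3.76 and 4.12 FPKM in Exosc3-present libraries. Again the Exosc3-depleted pair spans the Exosc3-present pair, with a log2 change of 0.03 (SE 0.23, limma adjusted p = 0.922). With Rec8 it was among the better expressed members, above 79.7% of rows in level in Exosc3-depleted cells and 77.4% in Exosc3-present cells.

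Tex101 (uc009fqf.1) had 0.498 and 0.407 FPKM in Exosc3-depleted libraries, against 0.499 and 0.275 FPKM in Exosc3-present libraries, and the groups overlap. The shortest model length that fitted was 527 bases, which gives 10 and 9 fragments in Exosc3-depleted libraries and 16 and 8 in Exosc3-present libraries. The nearest annotated transcript has 1059 bases, close to double that length, so the true counts may be larger by the same factor. With no filter on low values the log2 change was 0.11 (SE 0.16, limma adjusted p = 0.631).

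The list for the piRNA pathway and germ granules, which includes Ddx4 and Mael, had 22 names, 20 with a row and 12 tested. Of the 12, 1 rose, 4 fell and 7 did not pass, beside 12.6% higher and 30.1% lower over all tested rows. Tdrd7, a Tudor-domain scaffold of germ granules that is also active in the lens, rose to 1.26 and 1.64 FPKM in Exosc3-depleted libraries, against 0.234 and 0.315 FPKM in Exosc3-present libraries (log2 1.33, SE 0.17, limma adjusted p = 0.00155). It entered the test through its level in Exosc3-depleted cells and was not tested when the filter used only Exosc3-present libraries. Tdrd12, a Tudor-domain helicase of piRNA formation, fell to 3.35 and 3.42 FPKM in Exosc3-depleted libraries, against 9.40 and 8.24 FPKM in Exosc3-present libraries (log2 -1.26, SE 0.18, limma adjusted p = 0.00236). The mitochondrial nuclease gene Pld6 (log2 -0.69, adjusted p = 0.0145), the helicase gene Ddx25 (log2 -0.85, adjusted p = 0.0163) and Tdrd5 (log2 -0.58, adjusted p = 0.0412), named after its value was seen, also fell in limma. The Pld6 call ended in limma under median-of-ratios scaling (adjusted p = 0.0631) and scaling without the 50 highest rows (0.0788). The Ddx25 call ended under the latter scaling (limma adjusted p = 0.115). Both calls also ended without either Exosc3-present library. The list median was log2 -0.32, beside -0.27 for all tested rows. Median-of-ratios scaling left 2 lower, beside 1589 of all 9336 rows. Scaling without the 50 highest rows left 1 lower, beside 1330 of all 9336 rows. The number lower also moved when single libraries were left out.

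The tested genes for meiotic entry and recombination fell or did not pass. Of 24 names, 20 had a row and 9 were tested, of which 0 rose, 5 fell and 4 did not pass. Beside them, 12.6% of all tested rows were higher and 30.1% lower. The list median was log2 -0.85, beside -0.27 for all tested rows. Stra8, which is induced by retinoic acid and starts meiosis, had 0.103 and 0.322 FPKM in Exosc3-depleted libraries, against 3.45 and 3.12 FPKM in Exosc3-present libraries (log2 -2.42, SE 0.20, limma adjusted p = 0.000383). Mnd1, a partner of the recombinases in strand exchange, had 5.41 and 5.78 FPKM in Exosc3-depleted libraries, against 15 and 16.8 FPKM in Exosc3-present libraries (log2 -1.43, SE 0.18, limma adjusted p = 0.00133). Dmc1, the meiotic recombinase, had 0.730 and 1.08 FPKM in Exosc3-depleted libraries, against 2.20 and 2.39 FPKM in Exosc3-present libraries (log2 -1.0, SE 0.19, limma adjusted p = 0.00672). The X-linked gene Tex11, needed for crossovers, fell as well (log2 -0.85, limma adjusted p = 0.00584), as did Tex14, a gene for the bridges between germ cells, which is named after its value was seen (log2 -0.93, limma adjusted p = 0.0215). Stra8 and Tex11 averaged 0.212 and 0.309 FPKM in Exosc3-depleted libraries, so they entered the test only through their level in Exosc3-present cells. Without Exosc3-present replicate 2 the log2 change was -0.957 for Dmc1 and -0.761 for Tex11, and both calls were among those lost. With no filter on low values 6 of 20 were lower and 4 higher, beside 2888 lower and 1741 higher of all 15471 rows in that fit.

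**Figure D5:**
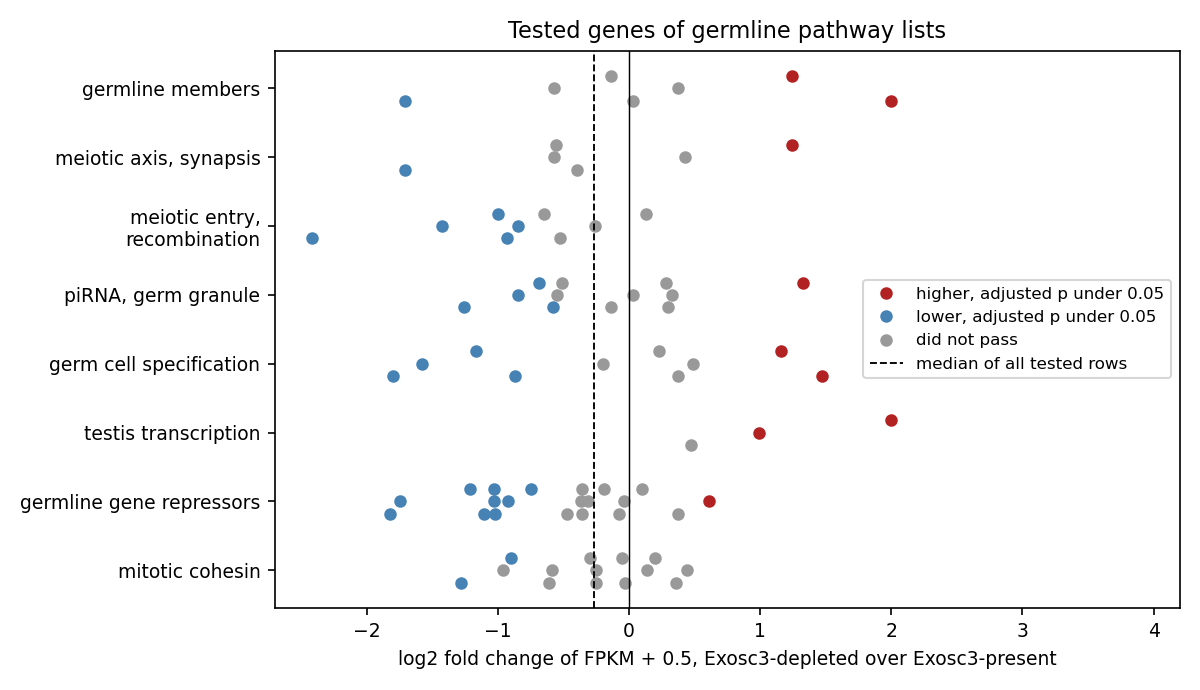
Log2 fold changes of the tested genes in 8 lists, 1 point per gene, Exosc3-depleted over Exosc3-present, red where higher, blue where lower and grey where the test was not passed; genes in several lists appear in each. The dashed line marks the median of all tested rows. In the meiotic entry and recombination list 5 of 9 points are blue and 0 are red, beside 30.1% lower and 12.6% higher over all tested rows.

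Genes that specify germ cells went both ways. Of 17 names 15 had a row and 10 were tested, with a median of log2 0.02. Of the 10, 2 rose, 4 fell and 4 did not pass, beside 12.6% higher and 30.1% lower over all tested rows. Nanos3, a translational repressor that protects primordial germ cells, had 2.98 and 2.77 FPKM in Exosc3-depleted libraries, against 0.991 and 1.04 FPKM in Exosc3-present libraries (log2 1.16, SE 0.17, limma adjusted p = 0.0026). Its relative Nanos1 had 2.67 and 3.15 FPKM in Exosc3-depleted libraries, against 0.745 and 0.719 FPKM in Exosc3-present libraries (log2 1.47, SE 0.18, limma adjusted p = 0.0012). Prdm14, which serves both germ cell specification and pluripotency, had 0.597 and 1.03 FPKM in Exosc3-depleted libraries, against 3.91 and 4.11 FPKM in Exosc3-present libraries (log2 -1.80, SE 0.22, limma adjusted p = 0.00118). The stem cell factor receptor gene Kit (log2 -1.58, adjusted p = 0.00284), the gonadal regulator gene Dmrt1 (log2 -1.17, adjusted p = 0.00267) and Sohlh2, named after its value was seen (log2 -0.87, adjusted p = 0.00758), were lower in limma too. Of the 4 primordial germ cell markers with a row, Nanos3 was higher, Kit and Prdm14 were lower and 1 was below the filter, and their summed level was 5.49 and 6.92 FPKM in Exosc3-depleted libraries, against 12.4 and 14.1 FPKM in Exosc3-present libraries. Of 6 markers of gonadal somatic cells 2 were tested, and both were called higher, Gata4 by log2 0.83 (limma adjusted p = 0.00972) and Dhh by 1.40 (adjusted p = 0.00138). Dhh averaged 1.28 FPKM in Exosc3-depleted libraries and 0.169 FPKM in Exosc3-present libraries, so it entered the test only through its level in Exosc3-depleted cells. The summed level of the 6 was 3.87 and 3.09 FPKM in Exosc3-depleted libraries and 1.17 and 1.14 FPKM in Exosc3-present libraries, with Fshr at 0 in all 4 and Sox9 at or below 0.00633. Foxl2, named after its values were seen, lay below the filter with 0.156 and 0.0851 FPKM in Exosc3-depleted libraries, against 0.00652 and 0 FPKM in Exosc3-present libraries, and with no filter on low values it was called higher as well (limma adjusted p = 0.0266). The part of such cells in the result was not tested. The Gata4 call ended without Exosc3-present replicate 1 (adjusted p = 0.0793) and without Exosc3-present replicate 2 (0.162).

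Several regulators known to keep germline genes low in stem cells were lower in Exosc3-depleted cells. Of 23 names 20 had a row and all 20 were tested, of which 1 rose, 9 fell and 10 did not pass, beside 12.6% higher and 30.1% lower over all tested rows, with a median of log2 -0.42 beside -0.27 for all tested rows. Uhrf1, which guides maintenance DNA methylation, had 28.5 and 32.5 FPKM in Exosc3-depleted libraries, against 101 and 118 FPKM in Exosc3-present libraries (log2 -1.82, SE 0.18, limma adjusted p = 0.000567). Ehmt2, an H3 lysine methyltransferase gene also called G9a, had 19.4 and 16.4 FPKM in Exosc3-depleted libraries, against 61.5 and 61.5 FPKM in Exosc3-present libraries (log2 -1.75, SE 0.17, limma adjusted p = 0.0006). The de novo methyltransferase gene Dnmt3b (log2 -1.21, adjusted p = 0.00334) and the scaffold gene Wdr5 (log2 -1.03, adjusted p = 0.00368) fell in limma as well, the Wdr5 call being lost without Exosc3-present replicate 2 (adjusted p = 0.0669). Of the Polycomb complex named above, Pcgf6 fell (log2 -1.11, adjusted p = 0.0069), E2f6 rose (log2 0.61, adjusted p = 0.0409), and Mga (log2 -0.37, adjusted p = 0.431) and Max (log2 -0.36, adjusted p = 0.174) did not pass in limma; these 4 are named after their values were seen. Under the 3 other scalings 4 to 7 were lower, beside 1330 to 1786 of all 9336 rows. The number lower also moved when single libraries were left out. The E2f6 call was absent without either Exosc3-present replicate and with no filter on low values.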

How the data were processed

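Total RNA depleted of ribosomal RNA was made into stranded paired-end libraries, per the labels' protocols. The authors deposited FPKM values for UCSC known genes with their symbols, 1 column per library, per the file headers. Build mm9 and the tools edgeR, bedtools, Picard, STAR and Bowtie2 are listed in the submitters' processing notes with neither role nor version, so the counting step is not given in the sources used here. Libraries were grouped by title.

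Per-million totals, model lengths and fragments were recovered from the spacing of the FPKM values, and all 15471 rows above 0 gave whole fragments within 0.004 (wider at high counts). The shortest fitting length was kept. Differences were tested in limma 3.58.1 under R 4.3.3 on log2(FPKM + 0.5) with a trended prior, keeping rows whose mean FPKM reached 0.5, with no covariate, two-sided, Benjamini-Hochberg adjusted over 9336 rows at a threshold of 0.05. Both steps were run on simulated data. For the test these had far fewer changed rows than were called here, in random directions, so a shifted median row was not covered. Lists were matched by symbol and represented by the highest row. Promoters came from RefSeq (GRCm38.p6) and neighbours from GENCODE M21, neither of which is the build of the files. The 10 members and the lists were chosen with earlier results of these data known. Named genes are the members, their paralogues and the 4 tested genes with the smallest p in each list, with exceptions marked. Alternatives covered the pseudocount, filter, scaling, prior, replicate number, recovered fragments (limma-voom), summed rows and each library left out. Fragment counts set the precision: tested members rest on 41 to 1410 fragments per library.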

Additional observations from a re-analysis of the deposited data

How the results depend on the processing

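The calls of Stag3 (lower) and Taf7l (higher) held in all 17 alternatives, and that of Hormad1 in all where it was tested except without Exosc3-present replicate 1. Of the members, 2 were higher and 1 lower in the main test. With a stricter filter at 2 FPKM, which leaves 4 members, 1 was higher and 2 lower. With no intensity trend, and with the replicate number as a block, 2 were lower, Rec8 being added. With single libraries left out 1 to 3 were higher and 1 to 3 lower. Such fits assume that the lone library varies like the intact pair, and log2 values differed more within the Exosc3-depleted pair (SD of 0.432) than within the Exosc3-present one (SD of 0.188).

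Over all rows 1177 were higher and 2806 lower. The number higher was 667 under that filter and 668 to 2183 with a library left out. The number lower was 1589 with median-of-ratios scaling, 1786 with quantile normalization, 1330 with scaling without the 50 highest rows and 1082 to 4715 with a library left out. These scalings put the median row at log2 0.01, -0.05 and 0.03, beside -0.27, and the share of calls that are higher at 52.5%, 46.9% and 53.7%, beside 29.6%.

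Signs turned for genes that were not called. Ddx4 took 0.097 with median-of-ratios scaling and 0.121 without the 50 highest rows, and -0.429 to 0.147 with a library left out. Mael took -0.22 without Exosc3-depleted replicate 2 and -0.027 without Exosc3-present replicate 1, and 0.283 without Exosc3-depleted replicate 1. Smc1a took 0.062, 0.083 and 0.086 under the 3 scalings and -0.773 to 0.28 with a library left out. Fbln2, a fibroblast marker, took 0.048 with median-of-ratios and 0.061 without the 50 highest rows. With a library left out Stag1 ranged over -0.006 to 0.723 and Taf7 over -0.035 to 0.376. The causes were not tested.

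With the replicate number as a block 1431 rows were higher and 3468 lower, and besides Rec8 the named genes Ddx3x (adjusted p = 0.0257), Pds5a (4.57e-05), Rad21 (0.0113), Sgol1 (0.0139) and Trip13 (0.0224) passed. Deviations of same-numbered libraries correlated at 0.24 across rows, but with 2 libraries a group the numbers are not shown to pair the samples. Depth limits Smc1b and Tex101, which had 8 to 64 fragments per library.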

Other observations

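Several meiotic genes that lay below the filter were called when no filter on low values was used. Of all 15471 rows in that fit, 1741 were higher and 2888 lower. The meiotic genes are named here after their values were seen. Among those higher in Exosc3-depleted cells was Hfm1, a crossover helicase gene, with 0.126 and 0.147 FPKM in Exosc3-depleted libraries, against 0.0393 and 0.0433 FPKM in Exosc3-present libraries. Msh4, which stabilises crossover intermediates, had 0.284 and 0.372 FPKM in Exosc3-depleted libraries, against 0.109 and 0.136 FPKM in Exosc3-present libraries. The bromodomain gene Brdt had 0.111 and 0.147 FPKM in Exosc3-depleted libraries, against 0.0523 and 0.05 FPKM in Exosc3-present libraries. The telomere attachment gene Terb1, also called Ccdc79, had 0.303 and 0.363 FPKM in Exosc3-depleted libraries, against 0.167 and 0.147 FPKM in Exosc3-present libraries. Each rests on 12 to 52 fragments per library, with limma adjusted p-values of 0.0158 to 0.0351 in that fit.

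Lower at such levels were Hormad2, the relative of Hormad1, with 0.176 and 0.213 FPKM in Exosc3-depleted libraries, against 0.465 and 0.566 FPKM in Exosc3-present libraries (limma adjusted p = 0.0171), and Mei4, a gene for meiotic break formation, with 0.0943 and 0.171 FPKM in Exosc3-depleted libraries, against 0.440 and 0.432 FPKM in Exosc3-present libraries (limma adjusted p = 0.0134). Hormad1 and Hormad2 thus lay on opposite sides of their Exosc3-present levels, and the difference between them was not tested. The piRNA genes Tdrkh and Gtsf1 were also lower, with Tdrkh at 0.119 and 0.234 FPKM in Exosc3-depleted libraries and 0.670 and 0.635 FPKM in Exosc3-present libraries (limma adjusted p = 0.0129).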
